A study of Mus musculus with 8 samples.

Results

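Phosphatidylcholine and phosphatidylethanolamine are the main phospholipids of cell membranes, and in the liver they also coat lipoproteins and enter the bile. The 10 genes described here, Pemt, Pcyt1a, Pcyt2, Chka, Chpt1, Cept1, Ptdss1, Ptdss2, Lpcat3 and Mfsd2a, encode enzymes that make or remodel these lipids and a transporter of lysophospholipids. They were chosen by function and found by their exact symbols among 22923 symbols in the files. All 10 were at 1 RPKM or more in every group (RPKM, reads per unit of transcript length and of library depth), as against 10351 symbols that reached 1 RPKM in at least 1 group.

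RNA came from livers of C57BL/6 mice in a design of 2 genotypes by 2 diets. Mice of the Xbp1flox genotype (flox) served as controls for mice whose genotype is given as Xbp1-/- and whose deficiency is described as hepatic (knockout), so the 2 control groups carried the flox genotype. For 4 weeks both genotypes ate regular chow or a fat-rich diet that also held a high-fructose corn syrup equivalent. RNA of the 4 mice of a group was pooled into 2 libraries, and the files used here give 1 RPKM value per gene and group. There is therefore no spread between libraries, no test and no p-value, and each difference below compares 2 deposited values without a replicate check. Sets of 4 values follow the order of the plots: flox on chow, flox on high fat, knockout on chow, knockout on high fat. For the driver of the deletion, and the age and sex of the mice, the sources used here give nothing.

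Phosphatidylcholine is made from choline in the CDP-choline (Kennedy) pathway. A kinase phosphorylates choline, a cytidylyl transferase turns phosphocholine into CDP-choline, and a phosphotransferase joins it to diacylglycerol. Phosphatidylethanolamine is made by a parallel CDP-ethanolamine pathway, and the liver can methylate it to phosphatidylcholine with the enzyme PEMT. Phosphatidylserine synthases exchange head groups, acyltransferases such as LPCAT3 exchange fatty acyl chains, and MFSD2A carries lysophosphatidylcholine into cells. Xbp1 codes for a transcription factor that acts in the unfolded protein response. Its spliced form is known to raise phospholipid synthesis when it is overexpressed in cultured cells.

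The start regions of Mfsd2a, Chpt1, Lpcat3 and Pcyt1a are printed because the first 2 genes gave the changes past the threshold, Lpcat3 held the most motif matches, and Pcyt1a alone matched the sterol motif. They come from RefSeq on GRCm38.p6 (the assembly that mm10 denotes), which held 13 windows for 8 of the 10 genes; Pcyt2 and Ptdss1 had no entry. Each line holds the 250 bases before an annotated start, 5′ to 3′ on the gene's strand, and capitals mark the motif letters found.
Mfsd2a, chr4:122961189-122961438, minus strand: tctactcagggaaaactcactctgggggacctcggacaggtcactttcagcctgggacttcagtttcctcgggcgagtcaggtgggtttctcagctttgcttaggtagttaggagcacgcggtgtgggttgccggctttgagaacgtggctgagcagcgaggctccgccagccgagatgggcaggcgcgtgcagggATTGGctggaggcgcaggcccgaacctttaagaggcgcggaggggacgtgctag
Chpt1, chr10:88503971-88504220, minus strand: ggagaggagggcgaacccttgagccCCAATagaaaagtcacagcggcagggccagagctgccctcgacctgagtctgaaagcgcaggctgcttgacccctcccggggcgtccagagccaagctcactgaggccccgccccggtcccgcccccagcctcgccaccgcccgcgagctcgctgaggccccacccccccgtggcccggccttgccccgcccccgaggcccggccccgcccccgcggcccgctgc
Lpcat3, chr6:124662854-124663103, plus strand: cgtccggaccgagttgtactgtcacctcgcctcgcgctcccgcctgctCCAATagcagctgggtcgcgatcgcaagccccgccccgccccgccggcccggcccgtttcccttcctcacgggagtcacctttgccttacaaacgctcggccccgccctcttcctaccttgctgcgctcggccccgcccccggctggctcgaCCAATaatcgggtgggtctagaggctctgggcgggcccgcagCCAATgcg
Pcyt1a, chr16:32430671-32430920, plus strand: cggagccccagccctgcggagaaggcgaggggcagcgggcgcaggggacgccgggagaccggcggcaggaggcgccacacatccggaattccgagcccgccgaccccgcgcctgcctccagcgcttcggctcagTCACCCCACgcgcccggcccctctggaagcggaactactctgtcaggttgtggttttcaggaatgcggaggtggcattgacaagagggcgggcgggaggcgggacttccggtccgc

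The motifs were searched on both strands of 300 bases, 250 before and 50 after each start, and positions give the first base of a match from the start. The NF-Y box CCAAT lay at base -54 of Mfsd2a on the reverse strand (ATTGG) and at base -225 of Chpt1. Lpcat3 held it at bases -202, -50 and -8 and once more at base 28 after the start. These positions count from the RefSeq start, and the gene bounds given below come from another annotation, GENCODE. For Lpcat3 and Chpt1 part of the printed stretch lies inside those bounds, as do the Lpcat3 boxes at -50 and -8. The box also lay at bases -82 and -28 of Chka, and on the reverse strand at base -2 of a Cept1 window and base -248 of a Pemt window. CCAAT is common, since 37.4% of all 32851 windows hold it. In Pcyt1a, which encodes the cytidylyl transferase of the CDP-choline pathway, the sterol response element TCACCCCAC began at base -116, and 0.551% of all windows hold these letters. A second, overlapping Pcyt1a window from another annotated start held the same match. The E-box CACGTG (7.15% of windows), the unfolded protein response core TGACGTGG (0.676%) and the ER stress element, CCAAT and CCACG 9 bases apart (0.119%), were not found in these 13 windows. Neither were repeats of AGGTCA 4 bases apart (0.0152%) or 1 base apart (0.0396%). A match is a stretch of letters and was not tested as a binding site.

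The members spanned a wide range of levels, as the plot of RPKM by group shows. In flox chow, Pemt stood at 439 RPKM, with 1.69% of the 10351 genes above it, and Pcyt2 (4.63% above) and Chpt1 (8.38% above) followed. Chka, with 61.6% of genes above it, and Ptdss2, with 59.6%, were the lowest. RPKM is scaled to transcript length, so levels may be compared between genes.

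**Figure D1:**
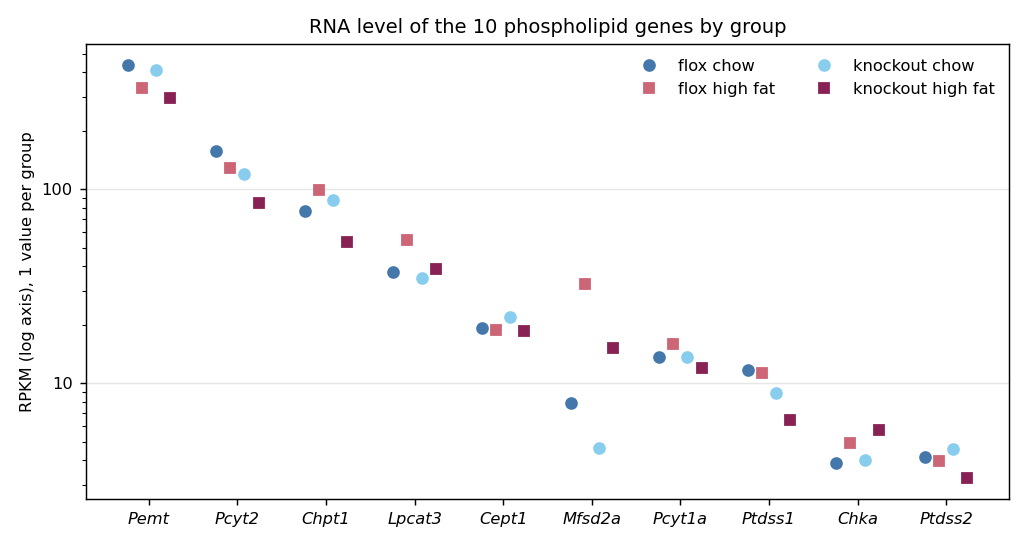
RPKM (log axis) of each of the 10 genes, with 1 point per group: circles are chow, squares are the high-fat diet. Mfsd2a varied the most, from 4.65 RPKM in knockout chow to 32.5 RPKM in flox high fat, while Cept1 stayed between 18.6 and 22.1 RPKM.

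Knockout high fat was the lowest group for 7 of the 10 genes, and flox high fat was the highest for 4. Of all kept genes listed above 0 in every group, 52% were lowest in knockout high fat and 28.7% highest in flox high fat, so both places are common among the deposited values. The RPKM of all genes summed to 513694 and 461725 in flox and to 461392 and 367414 in knockout livers, on chow and on the high-fat diet. A log2 change here is log2((a + 1)/(b + 1)) of 2 RPKM values, which understates changes of low genes, and "rose" and "fell" are kept for changes of at least 2-fold on this scale. Xbp1 checks the labels: it was at 112 RPKM in flox livers on chow and 90.7 RPKM on the high-fat diet, and at 39.6% and 37.6% of those levels in the matching knockout groups.

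The livers carried hepatocyte RNA at high levels in each group, and markers of other cells differed between groups. The 10 hepatocyte markers summed to 25981, 23346, 17021 and 13029 RPKM. Alb was listed at 0 in all 4 groups and Serpina1a in 3, so an exact 0 may be a failed estimate. Without Serpina1a the last of these sums was 11171 RPKM and the other 3 were as given. Apoa1, Ttr and Cyp2e1 made up most of each sum, so it does not describe every marker. Apob, at 227, 362, 151 and 207 RPKM, was higher on the high-fat diet in both genotypes. Apoa1, Ttr, Ass1 and Tat were lower on it in both, and Cyp2e1, Cps1 and Hnf4a were higher in flox and lower in knockout livers. The 10 cholangiocyte and progenitor markers summed to 28.8, 30.2, 52.0 and 124 RPKM, and the 9 other than Spp1 to 9.17, 9.60, 12.6 and 21.6 RPKM. Summed macrophage markers (9 genes) were at 112, 143, 115 and 199 RPKM and stellate cell markers (10 genes) at 21.1, 26.2, 26.3 and 46.8 RPKM. Summed endothelial markers (10 genes) stayed between 89.5 and 97.5 RPKM, but the single markers differed. Clec4g, the largest part of the sum, was at 47.8, 35.2, 39.9 and 35.5 RPKM, lower on the high-fat diet in both genotypes. All other endothelial markers were higher on it in both genotypes, for example Lyve1 at 3.28, 5.63, 2.11 and 3.25 RPKM. Sums for 8 lymphocyte markers lay between 3.21 and 3.89 RPKM, and those for 3 blood entries between 872 and 1829 RPKM. Of 7 adipocyte and pancreas markers, 6 were listed at 0 in at least 1 group, and the remaining one, Cela1, was at 12.2, 6.47, 8.76 and 3.39 RPKM. As a listed 0 may be a failed estimate, carry-over of these tissues cannot be judged from this list. Fewer cells of a type and less RNA per cell cannot be told apart in whole liver, and the part of cell makeup in the differences below was not tested.

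Mfsd2a, which encodes the sodium-dependent lysophosphatidylcholine transporter and lies at mm10 chr4:122946850-122961188, was the member that differed most between groups. It was at 7.86 RPKM in flox livers on chow and 32.5 RPKM on high fat, and at 4.65 RPKM in knockout livers on chow and 15.2 RPKM on high fat. Both high-fat groups were above both chow groups, and on each diet the knockout value was below the flox value. On the high-fat diet it was 4.14-fold higher in flox livers (log2 change 1.92) and 3.26-fold higher in knockout livers (log2 change 1.52). In knockout livers it stood at 59.2% of the flox level on chow (log2 change -0.65) and fell to 46.7% on the high-fat diet (log2 change -1.05). That fall ended under both rescalings of the groups, at -0.89 and -0.74, and with a pseudocount of 5 RPKM, at -0.89. Both rises with the diet stayed past the threshold under those settings.

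The genes whose levels over the 4 groups lay nearest to those of Mfsd2a were Elovl5, Apoa4, Cd36, Orm3 and Lmbrd2. Nearness was the root mean square difference of log2(RPKM + 1), centred on each gene's mean over 4 groups, among 6084 other genes. It was 0.39 for Elovl5, a fatty acid elongase gene, which stood at 82.1, 154, 47.3 and 107 RPKM. Apoa4, the gene of an apolipoprotein (distance 0.42), was at 113, 433, 70.5 and 405 RPKM. Cd36, a fatty acid uptake gene (distance 0.43), was at 11.6, 23.0, 6.78 and 23.0 RPKM. All 5 genes were highest in flox high fat and lowest in knockout chow, as Mfsd2a was, although Cd36 differed by less than 0.1 RPKM between the high-fat groups. With 4 points and a distance this large, the likeness is loose. The distance is not scaled to a gene's range, which was 2.57 log2 for Mfsd2a and 0.89 for Pcyt2. Distances of different members are therefore not comparable, and no nearness given here was tested.

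**Figure D2:**
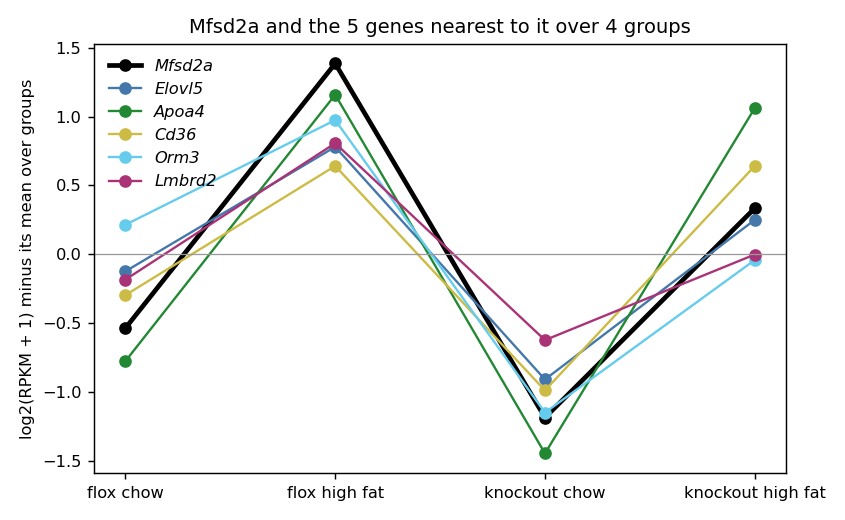
log2(RPKM + 1) minus its mean over the 4 groups for Mfsd2a (thick black line) and its 5 nearest genes; the lines only join the points of a gene. All 6 genes are highest in flox high fat and lowest in knockout chow. Apoa4 lies above Mfsd2a in knockout high fat.

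Lpcat3 encodes the acyltransferase that places polyunsaturated acyl chains into lysophospholipids, at mm10 chr6:124663027-124704418. It stood at 37.4 RPKM in flox livers on chow and 54.7 RPKM on high fat, and at 35.0 RPKM in knockout livers on chow and 39.0 RPKM on high fat. Flox high fat was the highest, and the other 3 groups lay close together as deposited. Its log2 change with the diet was 0.53 in flox livers and 0.15 in knockout livers, and it was -0.48 between the genotypes on the high-fat diet. Under the 2 rescalings the knockout diet change was 0.31 and 0.46 and the genotype change on the high-fat diet -0.31 and -0.16, so knockout high fat then lay nearer to flox high fat. None of these reached the threshold, and the chow difference between genotypes (-0.09) changed sign when groups were rescaled without their most abundant genes.

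In the last step of the CDP pathways, Chpt1 and Cept1 differed from each other. Chpt1 encodes cholinephosphotransferase, and Cept1 a related enzyme that uses both CDP-choline and CDP-ethanolamine. Chpt1 (mm10 chr10:88452745-88504073) was at 77.3 RPKM in flox livers on chow and 99.3 RPKM on high fat, and at 88.5 RPKM in knockout livers on chow and 53.3 RPKM on high fat. It was above flox chow in flox high fat and knockout chow but lowest where knockout and high-fat diet met. Its log2 change between genotypes was 0.19 on chow and -0.88 on the high-fat diet, and the difference of these, -1.08, was past the threshold. That difference was -0.94 and -0.90 under the 2 rescalings. Cept1 (mm10 chr3:106502260-106547802) was at 19.2, 18.9, 22.1 and 18.6 RPKM and varied the least of the members.

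By the same distance, the genes with levels nearest to those of Chpt1 were Aqp8, Bik, Scp2, Timm10 and Abat. Aqp8, an aquaporin gene, stood at 30.1, 37.0, 33.0 and 20.9 RPKM, at a distance of 0.04. Scp2, a sterol and lipid carrier gene, stood at 1354, 1544, 1342 and 876 RPKM, at a distance of 0.08.

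The upper steps of the choline branch varied less than Chpt1 and more than Cept1. Chka encodes choline kinase alpha (mm10 chr19:3851773-3894369) and was at 3.90 RPKM in flox livers on chow and 4.90 RPKM on high fat, and at 4.04 RPKM in knockout livers on chow and 5.71 RPKM on high fat. It was the only member with its highest value in knockout high fat, and its changes with the diet (0.27 in flox, 0.41 in knockout livers) did not reach the threshold. Pcyt1a encodes the enzyme regarded as rate-limiting in the pathway (mm10 chr16:32430921-32475070). It was at 13.6 RPKM in flox livers on chow and 15.9 RPKM on high fat, and at 13.7 RPKM in knockout livers on chow and 12.0 RPKM on high fat. The 2 chow groups hardly differed (log2 change 0.00), and on the high-fat diet the genotypes differed by -0.38, which became -0.23 and -0.08 under the 2 rescalings. Within a group, the Pcyt1a to Chka ratio was 3.50, 3.24, 3.38 and 2.1, with the lowest value in knockout high fat.

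In the ethanolamine branch, Pcyt2 encodes the cytidylyl transferase that makes CDP-ethanolamine (mm10 chr11:120610087-120617936). It was at 158 RPKM in flox livers on chow and 129 RPKM on high fat, and at 120 RPKM in knockout livers on chow and 84.7 RPKM on high fat. Knockout values were below flox values on both diets (log2 changes -0.39 and -0.60), and high-fat values were below chow values in both genotypes (-0.29 and -0.50). These differences kept their sign under both rescalings, and none reached the threshold. The 5 genes nearest to it, Gltpd2, Gamt, Il17rc, F10 and Ggt6, lay at distances of 0.01 to 0.03. Gltpd2, for example, was at 45.9, 37.2, 34.5 and 24.6 RPKM, and F10, the gene of coagulation factor X, at 154, 124, 116 and 85.4 RPKM.

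Pemt, the methyltransferase of the hepatic route from phosphatidylethanolamine to phosphatidylcholine (mm10 chr11:59970614-60046489), differed with diet more than with genotype. It was at 439 RPKM in flox livers on chow and 333 RPKM on high fat, and at 414 RPKM in knockout livers on chow and 295 RPKM on high fat. Both high-fat groups were below both chow groups. The log2 change with the diet was -0.40 in flox and -0.49 in knockout livers, negative under both rescalings, where it was -0.38 and -0.27 in flox and -0.33 and -0.18 in knockout livers. The genotype differences (-0.09 on chow, -0.18 on the high-fat diet) changed sign when the groups were rescaled without their most abundant genes.

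The phosphatidylserine synthases differed from each other by genotype. PTDSS1 exchanges the choline of phosphatidylcholine for serine, and PTDSS2 the ethanolamine of phosphatidylethanolamine. Ptdss1 (mm10 chr13:66932830-66998401) was at 11.7 RPKM in flox livers on chow and 11.3 RPKM on high fat, and at 8.88 RPKM in knockout livers on chow and 6.49 RPKM on high fat. Both knockout values lay below both flox values, with log2 changes of -0.36 on chow and -0.71 on the high-fat diet, which stayed negative under both rescalings. Ptdss2 (mm10 chr7:141122382-141157606) was at 4.18, 3.95, 4.60 and 3.24 RPKM, and its genotype change was 0.11 on chow and -0.23 on the high-fat diet. On the high-fat diet this turned to 0.03 when rescaled without the most abundant genes.

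Ratios of 2 members within a group do not depend on the scaling between groups; the pairs were chosen after the values were seen. The Ptdss1 to Ptdss2 ratio was 2.80 and 2.85 in flox livers and 1.93 and 2.01 in knockout livers, on chow and on the high-fat diet, so it split by genotype. Chpt1 to Cept1 was 4.03 and 4.01 in flox and knockout chow, 5.25 in flox high fat and 2.86 in knockout high fat. Pcyt2 to Pcyt1a was highest in flox chow, at 11.6, and lower in the other groups, where 8.11 in flox high fat was followed by 8.78 and 7.07 in knockout livers on chow and on the high-fat diet. Pemt to Pcyt1a was 32.2 and 30.3 in flox and knockout chow and 20.9 and 24.6 in flox and knockout high fat, so it split by diet. Mfsd2a to Lpcat3 was 0.210 and 0.133 on chow and 0.595 and 0.389 on the high-fat diet, in flox and knockout livers.

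**Figure D3:**
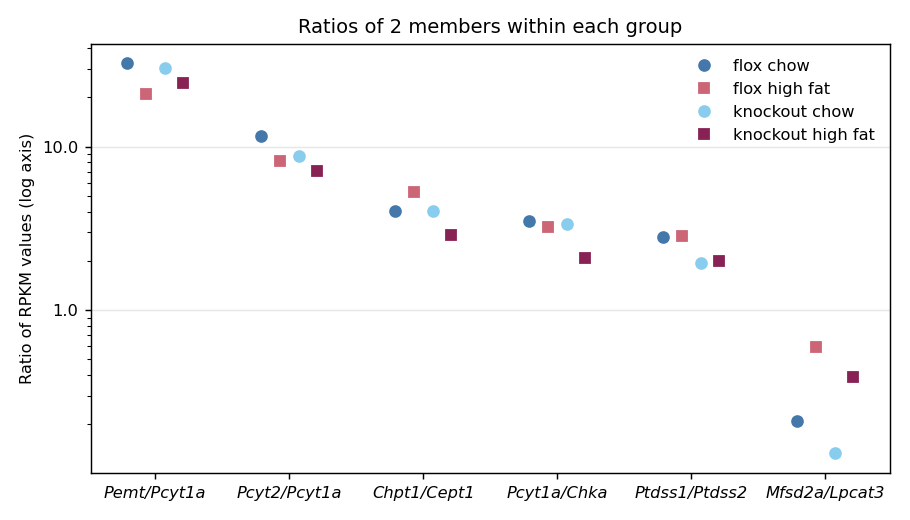
Ratio of the RPKM values of 2 members (log axis) within each of the 4 groups, which needs no scaling between groups. Ptdss1/Ptdss2 lies at 2.80 and 2.85 in flox and at 1.93 and 2.01 in knockout livers; Chpt1/Cept1 is lowest in knockout high fat, at 2.86.

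Some members share exon sequence with a gene on the opposite strand in GENCODE M21, and the sources used here do not say whether counting used strand. Cept1 overlaps Dram2 (24.9, 25.4, 30.6 and 24.5 RPKM), Ptdss1 overlaps Mterf3 (listed as Mterfd1 at 11.2, 9.30, 10.2 and 8.0 RPKM), and Lpcat3 overlaps Emg1 (20.0, 17.8, 19.6 and 11.8 RPKM). Chpt1 overlaps Sycp3, which reached at most 0.378 RPKM, and Pcyt1a overlaps Slc51a, listed as Osta at 0 in all groups. Cept1 also overlaps Dennd2d (at most 2.07 RPKM) and Ptdss1 4933433G19Rik (at most 0.0957 RPKM). Chka, a low gene, overlaps AC133523.2 and Gm16066, and Pcyt1a also 2210020O09Rik, for which no values were found. Without strand, reads of such partners cannot be told apart.

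Across the 10 members, few passed the threshold in any comparison, and the comparisons share groups with each other. Between knockout and flox on chow, 0 of 10 passed, where 1.62% of 10322 genes did, and the members' median log2 change was -0.04 (all genes -0.02). On the high-fat diet 1 of 10 passed, Mfsd2a, against 2.93% of 10327 genes. There 9 of 10 members were below 0, with a median of -0.43, as were 70.1% of all genes, with a median of -0.13. The members' median was -0.27 after setting the median log2 ratio of all genes to 0 and -0.12 after equalising the sums of all but the 50 most abundant genes of any group, where the medians of all genes were 0.00 and 0.14. Of the 10 members, 8 lay below the all-gene median here, and 3 of the 9 negative values, those of Pemt, Cept1 and Ptdss2, turned positive under at least 1 rescaling.

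For the diet, Mfsd2a was the 1 of 10 that passed in flox livers (0.639% of 10322 genes passed) and the 1 of 10 in knockout livers (1.46% of 10328). The members' medians were 0.10 in flox and -0.32 in knockout livers, beside -0.01 and -0.11 for all genes. The knockout median was -0.17 and -0.03 under the 2 rescalings. For the difference between the knockout changes on the 2 diets, 1 of 10 passed, Chpt1, against 1.23% of 10319 genes, and 9 of 10 were below 0, as were 67.9% of all genes; Pemt turned positive under both rescalings.

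**Figure D4:**
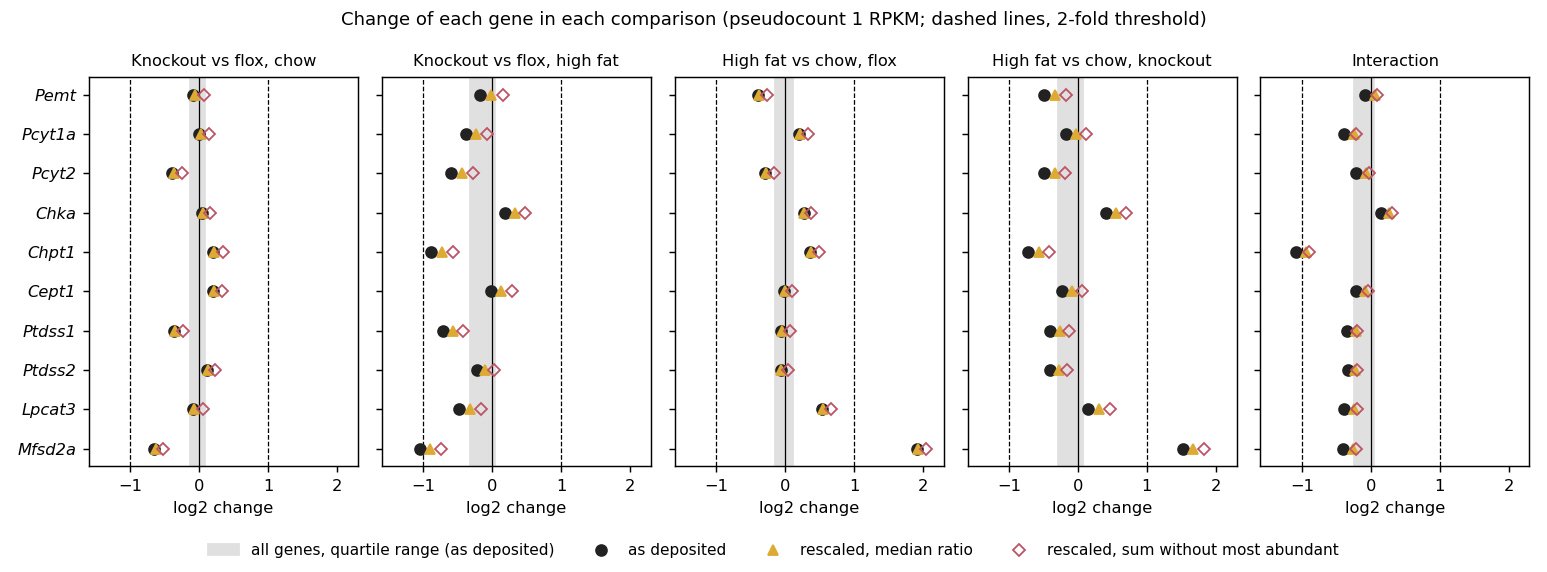
log2 change of each member (pseudocount 1 RPKM) in the 4 comparisons and the difference of the knockout changes (interaction), as deposited and under 2 rescalings; grey spans the lower to the upper quartile of all genes and dashed lines the 2-fold threshold. Mfsd2a lies past the threshold with the diet in both genotypes under each scaling, while its value for knockout against flox on the high-fat diet (-1.05) and that of Chpt1 in the interaction (-1.08) move inside it when rescaled.

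The neighbouring pathway genes, in 7 lists chosen by function, had 90 entries kept out of 101. In knockout against flox, 1 fell on chow (1.62% of all genes passed in either direction) and 2 on the high-fat diet (2.93%). With the diet, 0 passed in flox livers (0.639%), and 1 rose and 3 fell in knockout livers (1.46%). Their median log2 changes were -0.09, -0.29, 0.03 and -0.08 in these comparisons, beside -0.02, -0.13, -0.01 and -0.11 for all genes. For the difference of the knockout changes, 2 of the 90 passed, both below 0, against 1.23% of all genes. Where a list count below names no comparison, it takes all 5 together. The share of all genes past the threshold in at least 1 of the 5 was not counted and exceeds each single share, so such counts are not read as a result.

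A further list joined other Kennedy pathway genes with genes of decarboxylation and of phosphoethanolamine breakdown. Among its 6 kept entries, Agxt2l1, a breakdown gene, was the one past the threshold. It encodes the ethanolamine-phosphate phospholyase (now Etnppl), which breaks down phosphoethanolamine. It was at 25.8 RPKM in flox livers on chow and 19.8 RPKM on high fat, and at 35.1 RPKM in knockout livers on chow and 11.5 RPKM on high fat. It fell with the diet in knockout livers (log2 change -1.53), against -0.36 in flox livers. Etnk2, an ethanolamine kinase gene, was at 134, 126, 127 and 78.9 RPKM, lowest in knockout high fat like Chpt1. Choline kinase beta was listed only as a joint entry with its neighbour Cpt1b, at 12.6, 14.9, 17.4 and 13.0 RPKM, and cannot be read alone.

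Of 16 genes of choline uptake and oxidation and of methyl group supply and use, 2 fell with the diet in knockout livers and 0 rose. Of all 10328 genes, 82 fell and 69 rose. The median log2 change was -0.32 for the 16 genes and -0.11 for all genes. Gnmt, glycine N-methyltransferase, which consumes the same methyl donor as PEMT, was at 1419 RPKM in flox livers on chow and 871 RPKM on high fat, and at 1464 RPKM in knockout livers on chow and 586 RPKM on high fat (log2 change with the diet -1.32 in knockout and -0.70 in flox livers). Bhmt, the enzyme that passes a methyl group from betaine to homocysteine, was at 1321, 1345, 1710 and 816 RPKM. Its fall with the diet in knockout livers (-1.07) ended under both rescalings, at -0.91 and -0.76. Ahcy, which clears the by-product of methylation, stood at 692, 670, 567 and 338 RPKM, and its genotype change on the high-fat diet, -0.99, was just inside the threshold. Slc44a1, a choline transporter gene, was at 4.89, 6.16, 2.52 and 2.83 RPKM, with both knockout values below both flox values.

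In the supply of phosphatidic acid and diacylglycerol, Agpat2 was the 1 of 14 genes past the threshold. It encodes an acyltransferase that makes phosphatidic acid and stood at 84.4 RPKM in flox livers on chow and 108 RPKM on high fat, and at 49.3 RPKM in knockout livers on chow and 37.6 RPKM on high fat. It fell in knockout livers on the high-fat diet (-1.50), and on chow the change was -0.76. Of 19 genes of remodelling and release, 0 passed in any comparison. Pla2g12b, a secreted phospholipase-like gene, was at 29.0, 25.4, 18.1 and 12.4 RPKM, and its genotype change on the high-fat diet was -0.98. Of 12 genes of other phospholipid classes, 0 passed either.

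Among 11 transfer and export genes, Pltp, the plasma phospholipid transfer protein gene, was the one past the threshold. It was at 22.3 RPKM in flox livers on chow and 23.5 RPKM on high fat, and at 15.2 RPKM in knockout livers on chow and 32.1 RPKM on high fat, and it rose with the diet in knockout livers (1.03), where the pseudocount of 5 RPKM gave 0.88. Abcb4, which moves phosphatidylcholine into bile, was at 43.9, 63.3, 27.4 and 36.9 RPKM. Its values were higher on the high-fat diet in both genotypes and lower in the knockout on both diets, as those of Mfsd2a were. The diet changes of Abcb4 were smaller (log2 change 0.52 in flox and 0.42 in knockout livers) and did not pass. Other genes had the same signs as deposited, among them Ppara and the member Lpcat3. Of 12 regulators, Srebf1, the gene of a transcription factor of lipid synthesis, fell in knockout livers on both diets (-1.16 and -2.11), from 79.7 to 35.2 RPKM on chow and from 143 to 32.4 RPKM on the high-fat diet. Ppara, the gene of a fatty acid receptor, was at 32.9, 57.9, 28.8 and 38.8 RPKM and did not pass. Nr1h3, which encodes the sterol receptor LXR alpha, was at 42.8, 39.4, 36.2 and 28.5 RPKM and did not pass.

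**Figure D5:**
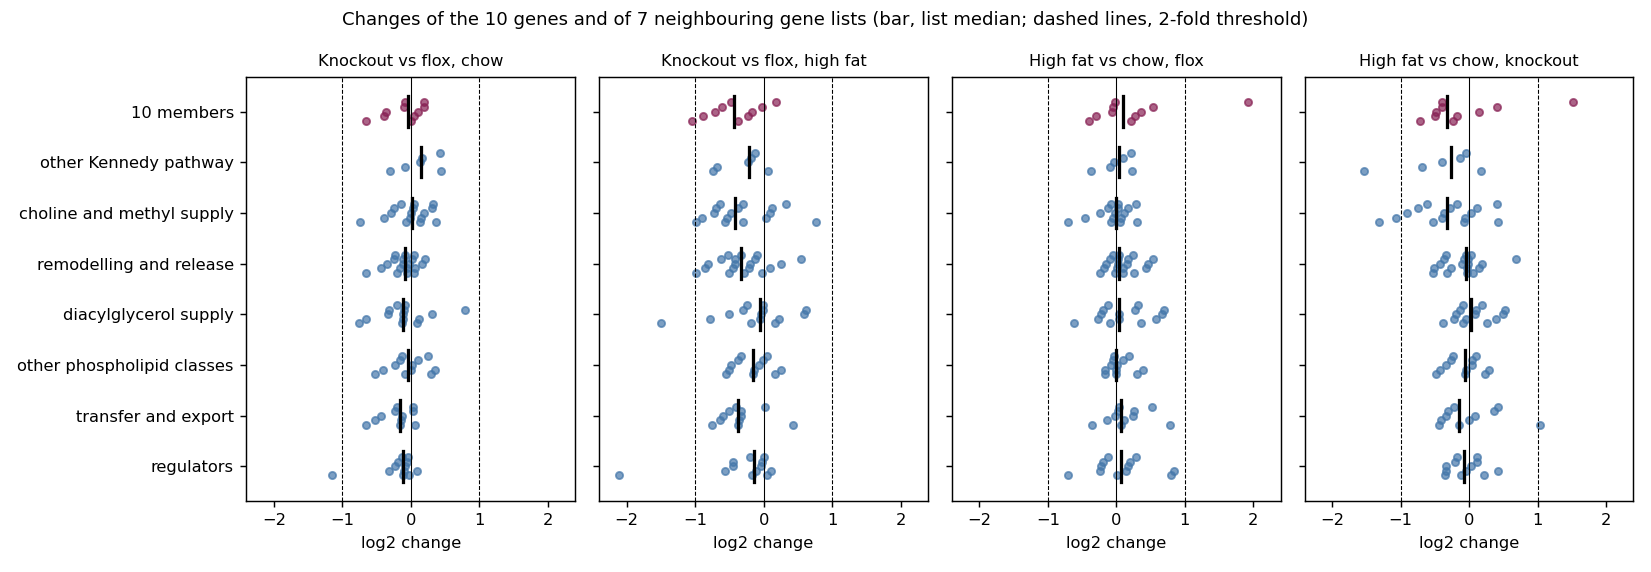
log2 change (pseudocount 1 RPKM) of each of the 10 members (purple) and of the kept genes of 7 neighbouring lists (blue) in 4 comparisons, with the median of each list as a bar and the 2-fold threshold as dashed lines. Most genes lie inside the threshold; among those outside are Srebf1 at -2.11 among the regulators and Mfsd2a at 1.92 and 1.52 among the members.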

How the data were processed

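Liver RNA was sequenced from 8 libraries in 4 groups of 2, and 4 files with 1 value per gene and group were used. Each file was tied to its group by the part of its name that the sample titles share. The deposited values are RPKM, per the file headers. The submitters' processing notes name TopHat2 2.0.7, Cuffdiff 2.1.1 and mm10 without a role. How 2 libraries became 1 value, how libraries were scaled and which annotation was used is not given in the sources used here. Depth is unknown: among 2169 genes under 0.1 RPKM in 2 groups, 1.43% shared the most common ratio (bins of 0.02 log2), so no steps of whole reads were seen. No interval or floor is given.

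Values of 158 symbols that occur in several rows were added up. Genes at 1 RPKM or more in at least 1 group were kept, a pseudocount of 1 RPKM was added, and changes of at least 2-fold were called. No change was computed against a group where a gene is listed at 0. The members and lists were chosen with earlier results of these data known. All members are described; each list names up to 5 genes that passed and reached 5 RPKM in a group compared, and Etnk2, Chkb, Ahcy, Slc44a1, Pla2g12b, Abcb4, Ppara and Nr1h3 were added after their values were seen. For the 3 members with the widest range, the 5 nearest genes are named. Tried in turn were pseudocounts of 0.1 and 5, filters of none and of 5 RPKM, a 1.5-fold threshold, the highest of repeated rows, and 2 rescalings. Coordinates come from GENCODE M21. Python 3.11.15, numpy 2.4.6, pandas 2.3.3 and matplotlib 3.10.9 were used. The steps for knockout against flox on chow, with the median rescaling, were tested on simulated counts. The simulation assumed a depth and had no spread between mice or libraries, so it checks the computation and not the calls reported here.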

Additional observations from a re-analysis of the deposited data

Results flagged for a closer look

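For some genes the deposited values differed in opposite directions on the 2 diets or in the 2 genotypes; each group is 1 value, so none of these differences was tested. For Chpt1, the knockout change was 0.19 on chow and -0.88 on the high-fat diet, and the diet change was 0.36 in flox and -0.72 in knockout livers, a difference of -1.08 either way. The knockout change of Agxt2l1 was 0.43 on chow and -0.74 on the high-fat diet (difference -1.17), and that of Bhmt was 0.37 and -0.72 (difference -1.09). None of these separate changes reached the threshold. The differences for Agxt2l1 and Bhmt depended on the settings. That of Agxt2l1 was -0.97 with a pseudocount of 5 RPKM, inside the threshold, and -1.03 after setting the median log2 ratio to 0. That of Bhmt was -1.09 with the same pseudocount and -0.95, inside the threshold, after the same rescaling. The other members of this kind had small changes, some of which share a sign when rescaled. Pcyt1a had knockout changes of 0.00 and -0.38 and diet changes of 0.21 in flox and -0.18 in knockout livers (difference -0.38 in both cases). Ptdss2 had knockout changes of 0.11 and -0.23 (difference -0.34) and Cept1 of 0.19 and -0.02 (difference -0.22). When groups were rescaled without their most abundant genes, the diet change of Pcyt1a in knockout livers was 0.11 and the knockout change on the high-fat diet 0.03 for Ptdss2 and 0.29 for Cept1, so these no longer had opposite signs.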

How the results depend on the processing

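No paired analysis was possible because the files hold 1 value per group and none per library; for the same reason no library could be left out. Of 395 alternative values for the members' changes, 385 stayed on their side of the threshold, 5 lost a call and 5 gained one; for the 6 named pathway genes the numbers were 223, 6 and 11 of 240. The sign turned in 13 of the 395 and 2 of the 240, each under a rescaling. It turned in 0 cases for a change past the threshold as deposited, which the rescalings could not reverse, since their largest factor was 1.38. The 2 filter settings leave a gene's own log2 change as it was, so values under them could change neither side nor sign. Ptdss2 has no value under the 5 RPKM filter. With a pseudocount of 5 RPKM, 0 of 10 members passed in knockout against flox on the high-fat diet in place of 1, and the same count of 0 came from both rescalings, which also took the count for the difference of the knockout changes from 1 to 0. At a 1.5-fold threshold the members past it were 1 for genotype on chow (main count 0), 4 for genotype on the high-fat diet and 2 for diet in knockout livers. Beside these, 509 of 10322, 1190 of 10327 and 762 of 10328 genes passed. Under the 2 rescalings, the genotype changes on the high-fat diet of Pcyt2 (-0.44 and -0.27) and Ptdss1 (-0.56 and -0.42) lay inside 1.5-fold. So did the diet change of Chpt1 in knockout livers (-0.56 and -0.41). The counts over all genes for genotype on chow, genotype on the high-fat diet, diet in flox, diet in knockout and the difference were 167, 303, 66, 151 and 127. They became 263, 494, 124, 305 and 240 with a pseudocount of 0.1 RPKM, 96, 156, 40, 85 and 68 with 5 RPKM, and 509, 1190, 300, 762 and 552 at 1.5-fold. Rescaling moved the split: on the high-fat diet 111 genes were higher and 192 lower in knockout livers as deposited, 147 and 124 after setting the median log2 ratio to 0, and 219 and 88 when the most abundant genes were left out of the scaling. For genotype on chow the split of 26 and 141 became 37 and 105 under the latter. For diet in flox livers 22 and 44 became 33 and 35. For diet in knockout livers, 69 and 82 became 97 and 61, then 156 and 48, and for the difference 68 and 59 became 97 and 36, then 117 and 34. The depth behind each value is unknown, so the precision of low genes such as Chka and Ptdss2 cannot be given.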
